A study of Homo sapiens with 9 samples.

Results

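The 9 genes described here supply deoxynucleotides for DNA synthesis: *RRM1* and *RRM2*, which encode the subunits of ribonucleotide reductase; *TYMS*, *DUT* and *DTYMK* of the thymidylate branch; the salvage kinases *TK1* and *DCK*; and *CTPS1* and *PAICS* of nucleotide synthesis. They were the rows of the count table whose gene symbol was on this list of 9, out of 60662 genes in all, and every symbol matched a single protein-coding gene. Bulk RNA-seq covered SET2, a *JAK2* mutant megakaryoblastic leukemia line that the labels call post-MPN AML, as untreated wild-type (WT) cells (n = 3 libraries) and as untreated *DYRK1A* knockout (KO) clones 11H1 (n = 3) and 14B5 (n = 3). *DYRK1A* encodes a kinase needed for assembly of DREAM, a complex that represses many cell cycle genes in resting cells. Cas9 ribonucleoprotein was delivered by nucleofection, single cells were sorted, and each clone descends from 1 of them and carried out-of-frame indels only, whereas no sample is described as an unedited clone. The design sets each clone against WT, and the study's text also pools both clones as KO.

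Replicates of a clone share its founder cell, and nothing in the descriptions states that the replicates of a group were separate cultures, so the p-values measure only the spread between these libraries. All 9 genes passed the filter on low counts in every comparison.

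Cells make most of their deoxynucleotides by reducing ribonucleotides, the step that ribonucleotide reductase catalyzes, and they complete the set by methylating deoxyuridylate to thymidylate. Salvage kinases add to the pools by phosphorylating deoxynucleosides taken up from outside. Several of these genes, *RRM2*, *TK1* and *TYMS* among them, are textbook E2F targets that peak as cells enter S phase, and leukemia drugs such as hydroxyurea and cytarabine act on or through their products.

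DREAM and E2F factors reach promoters through short DNA elements. The 250 bases before each start site in RefSeq (GRCh38.p14) were therefore searched on both strands for the E2F letters TTCCCGC or TTGGCGC. They were also searched for the letters TTTGAA or TTCGAA of the cell cycle genes homology region (CHR). The letters CCAAT were searched as well, with no claim that DREAM or E2F factors bind them. Read on the other strand, CCAAT can share bases with TTGGCGC. The 9 genes have 17 such windows. *RRM1* was the only member with all 3 elements in a single window. That window, chr11:4094435-4094684 on the plus strand, holds no exon of the annotation used and is shown whole, with the matched letters in capitals:
RRM1: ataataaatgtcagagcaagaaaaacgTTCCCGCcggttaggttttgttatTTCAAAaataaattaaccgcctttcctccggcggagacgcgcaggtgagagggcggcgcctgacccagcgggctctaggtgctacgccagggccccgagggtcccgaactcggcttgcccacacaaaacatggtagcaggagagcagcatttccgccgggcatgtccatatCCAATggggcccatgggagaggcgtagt

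Only some matches of the other members are shown. Left out are CCAAT matches of *RRM2*, *TK1* and *DTYMK*, E2F matches of *DCK* and *DUT*, and a CHR match of *DUT*. Those shown have up to 10 bases on either side, read along the strand of the gene. They are kept short because these sites lie close to or inside alternative first exons. The sites are chr18:657604-657630 (plus strand) for *TYMS*, chr2:10122366-10122392 and chr2:10122606-10122630 (plus) for *RRM2*, chr17:78187053-78187074 (minus) for *TK1*, chr4:70993447-70993473 (plus) for *DCK*, chr15:48331973-48331998 and chr15:48332145-48332171 (plus) for *DUT*, chr2:241686884-241686909 (minus) for *DTYMK* and chr4:56436084-56436110 (plus) for *PAICS*. The E2F site of *DUT* ends in a further capital, the first base of a TTGGCGC match that is not shown whole. In order the sites read:
TYMS, E2F: cgggacggccGCGGGAAaaggcgcgcg
RRM2, E2F: gggcccgcgcGCGCCAAggccgccgag
RRM2, CCAAT: caaggcgcagCCAATgggaagggtc
TK1, E2F: agcggtcggcGCGGGAAccagg
DCK, E2F: ccggaacctcTTCCCGCgccctgcccg
DUT, CHR: gaagctccccTTCAAAgttggcccca
DUT, E2F: ggcggggctgGCGGGAAatttcggttT
DTYMK, CHR and CCAAT: ggCCAATcccTTCGAAtttggccgag
PAICS, E2F: cgcctgcgcgGCGGGAAgccagtgggg

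E2F letters stood in 7 of the 17 windows (41.2%) and in at least 1 window of 7 of the 9 genes, against 7.81% of all 35116 RefSeq windows of the same length. The CHR letters were in 3 windows (17.6%, *RRM1*, *DUT* and *DTYMK*), against 14.3% of all windows, and CCAAT was in 5 (29.4%, *RRM1*, *RRM2*, *TK1* and *DTYMK*), against 32% of all. *RRM2* has 3 copies of CCAAT before its downstream start, at 123, 93 and 66 bases, a number reached in 2.93% of all windows. None of these letters was found in the windows of *CTPS1*. A match is a description of the letters only, and factor binding was not measured.

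*DYRK1A* itself remained transcribed, at 197, 196 and 218 CPM (the count after scaling every library to the same total, with TMM factors) in WT, 188, 191 and 192 CPM in 11H1, and 191, 182 and 174 CPM in 14B5, with every clone library below WT. It was called lower in 14B5 (log2FC −0.17, edgeR adjusted p = 0.0278) and not in 11H1 (−0.09, adjusted p = 0.131), and out-of-frame edits need not lower the RNA level. The libraries held 32347779 to 60272245 expected counts in total, and the lowest count of a member was 1205, for *DTYMK* in 11H1 replicate 3. All 6 hematopoietic markers checked were detected, with sums of 2229 to 2464 CPM in WT, 1526 to 1606 in 11H1 and 1658 to 1766 in 14B5. Of 6 non-hematopoietic markers, *KRT5* and *MYOD1* were at 0 in every library and *ALB* had at most 2 counts, but the endothelial gene *CDH5* had a mean of 8.63 CPM in WT, 3.67 in 11H1 and 0.131 in 14B5, *COL1A1* reached 2.34 CPM and *EPCAM* 0.656. Of the megakaryocyte markers *PF4* (at most 0.559 CPM) and *VWF* (at most 0.121 CPM) were at or near 0 in every library. Summed over 8 markers, the megakaryocyte level was 1375 to 1386 CPM in WT, against 971 to 1027 in 11H1 and 940 to 980 in 14B5. *ITGA2B* and *GATA1* made up most of that sum, and lower markers moved further, *GP9* from a mean of 22.2 CPM in WT to 4.27 in 11H1 and 0.804 in 14B5, and *ITGB3* from 54.8 to 20.3 and 5.77. The progenitor marker *CD34* had means of 271, 100 and 48.4 CPM in the same order, and the erythroid markers *SLC4A1* (11.3, 55.3 and 38.2) and *EPOR* (49.5, 102 and 95.6) were higher in the clones. The part of these markers in the results was not tested. The mitochondrial genome took 3.54% to 6.03% of the reads in WT, 7.23% to 7.39% in 11H1 and 3.30% to 3.92% in 14B5, and leaving its genes out changed no call of a member. In bulk RNA, fewer cells of a type and less RNA per cell cannot be told apart, and the share of cells in S phase was not measured.

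The members responded differently in the 2 clones. In 14B5 all 9 stood above WT in every library, as did 29.8% of the 16537 genes tested (60.9% had no overlap in either direction), and 8 of the 9 passed the test, all of them higher, while 53.5% of the genes tested passed (24.9% higher and 28.7% lower). In 11H1, 3 rose (*RRM2*, *TK1* and *CTPS1*) and 3 fell (*DCK*, *DUT* and *PAICS*), 6 of 9 beside 64.6% of 16675 genes tested (31.8% higher and 32.8% lower). For 7 of the 9, all but *RRM1* and *DTYMK*, the 11H1 libraries lay wholly to one side of WT, as they did for 68.7% of the genes tested. Set directly against each other, the clones differed in all 9 genes, 8 lower and *CTPS1* higher in 11H1, beside 63.7% of 16352 genes tested (32.1% lower and 31.6% higher). With so many genes called in every comparison, a count of called members says little by itself, and the directions and sizes below carry the description. A gene was called when the Benjamini-Hochberg adjusted p of edgeR's quasi-likelihood test, fitted across all genes, was below 0.05. The comparisons of the clones with WT share the WT libraries, so their values are given side by side and not related to each other.

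**Figure D1:**
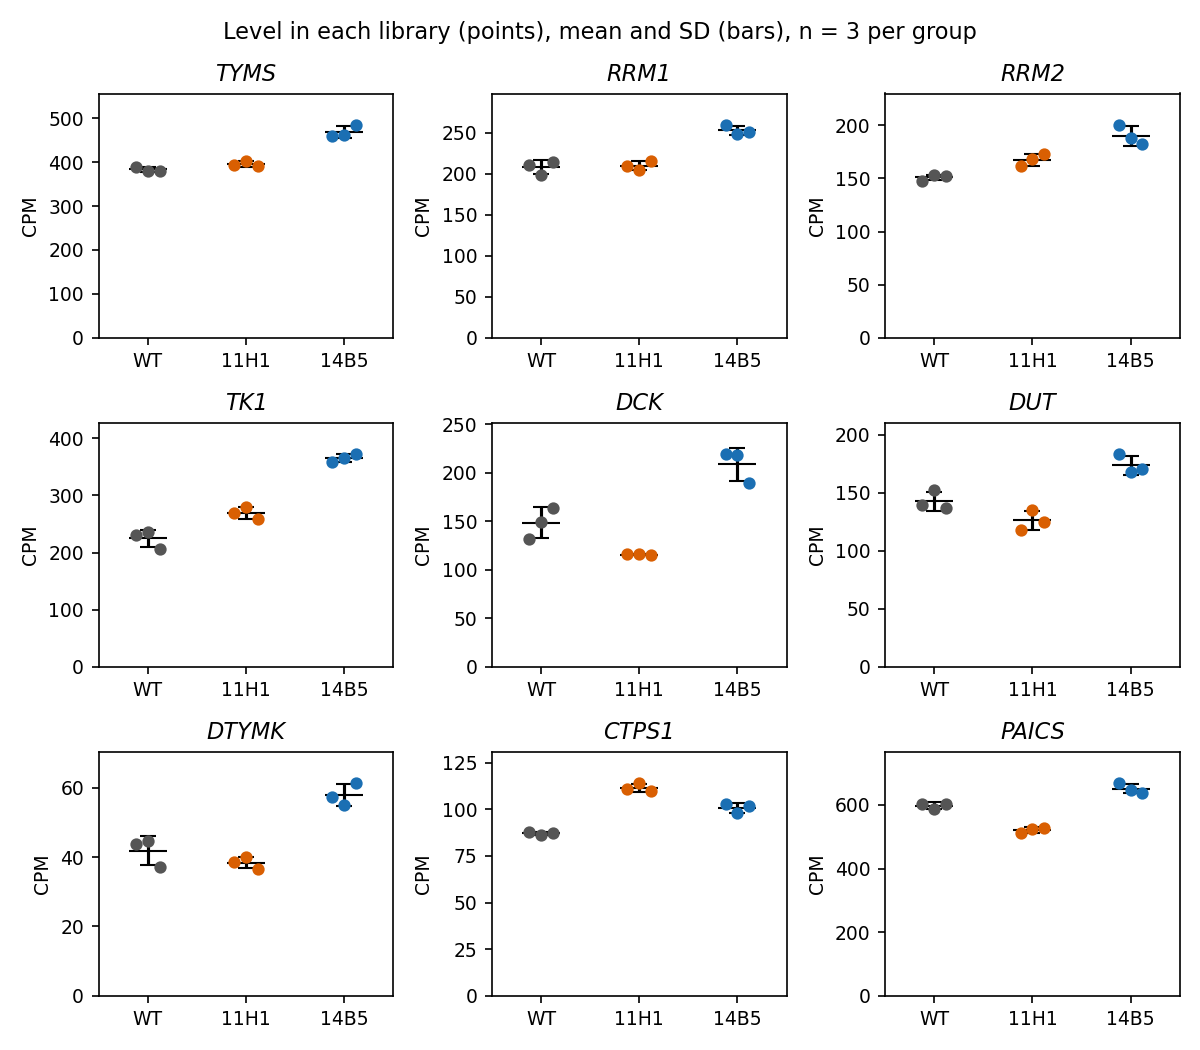
Level of each of the 9 genes in CPM (vertical axes, from 0) in the 3 libraries of WT, 11H1 and 14B5 (points), with the group mean and SD (bars). The 14B5 points lie above the WT points in every panel, and the 11H1 points lie above those of 14B5 for *CTPS1* alone.

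*RRM1* encodes the large subunit of ribonucleotide reductase, which holds the catalytic site and the sites where nucleotides set its activity (ENSG00000167325.15, chr11:4094707-4138876, plus strand, GRCh38). Its level was 211, 198 and 214 CPM in the WT libraries, 210, 204 and 215 in 11H1, and 259, 249 and 251 in 14B5. WT and 11H1 overlapped, at means of 208 ± 8.56 and 209 ± 5.25 CPM (SD, n = 3 each), and 14B5 stood apart from both at 253 ± 5.12. The log2 fold change (log2FC) was 0.02 (SE 0.0475) in 11H1 (edgeR adjusted p = 0.747) and 0.27 (SE 0.0476) in 14B5 (adjusted p = 9.02e-04). The antisense gene *RRM1-AS1* shares 63 exon bases with *RRM1* and had 0 counts in every library.

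*RRM2* encodes the small subunit, whose tyrosyl radical starts the reduction and whose amount limits the enzyme through the cell cycle (ENSG00000171848.15, chr2:10120698-10131419, plus). WT libraries held 148, 153 and 152 CPM, those of 11H1 162, 168 and 173, and those of 14B5 200, 188 and 182. The 3 groups did not overlap and rose in that order, with means of 151 ± 2.75, 168 ± 5.27 and 190 ± 9.46 CPM. *RRM2* rose by a log2FC of 0.16 (SE 0.0440) in 11H1 (edgeR adjusted p = 0.00640) and of 0.32 (SE 0.0498) in 14B5 (adjusted p = 4.14e-04). The protein-coding gene AC007240.1, on the same strand, shares 1077 exon bases with *RRM2*. It has no counts of its own in these data, so its level cannot be seen.

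The alternative small subunit *RRM2B*, which p53 induces and which serves resting cells and mitochondria, fell in 11H1 (log2FC −0.18, edgeR adjusted p = 0.0224) and was not called in 14B5 (0.19, adjusted p = 0.0878). Its call in 11H1 was lost without WT replicate 3 (edgeR adjusted p = 0.0513), 11H1 replicate 1 (0.0880) or 11H1 replicate 2 (0.0597), and a call in 14B5 appeared without WT replicate 3 (0.0344) or 14B5 replicate 3 (0.00941). With all 9 libraries fitted as 3 groups, *RRM2B* was not called in 11H1 (edgeR adjusted p = 0.0555) and was called in 14B5 (0.0387). Without the filter on low counts it was also called in 14B5 (0.0138). All 4 reductase partners fell in 11H1, among them glutaredoxin *GLRX* (−0.54) and the thioredoxin system genes *TXN* (−0.24) and *TXNRD1* (−0.20), which pass electrons to the enzyme. In 14B5 these 3 had log2FC of 0.07, 0.19 and −0.03 and were not called. For *TXN* alone of the partners, the 11H1 libraries (43.4, 51.7 and 50.2 CPM) overlapped those of WT (63.0, 59.1 and 49.4). The fall of *TXN* in 11H1 (edgeR adjusted p = 0.0302) was lost without WT replicate 1 (0.0948), WT replicate 2 (0.0817), 11H1 replicate 1 (0.155) or 11H1 replicate 3 (0.0525), and a call in 14B5 appeared without WT replicate 1 (0.0270). *TXN* was also called in 14B5 by the DESeq2 Wald test (adjusted p = 0.0378) and by edgeR without the filter on low counts (0.00849).

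In the thymidylate branch, *TYMS* encodes thymidylate synthase, the target of fluorouracil (ENSG00000176890.16, chr18:657604-673578, plus). It stood at 390, 380 and 381 CPM in WT, 393, 403 and 391 in 11H1, and 459, 463 and 484 in 14B5. The 11H1 libraries lay just above the highest WT library, at 396 ± 6.36 against 384 ± 5.77 CPM, and 14B5 was well clear of both at 469 ± 13.2. The difference was a log2FC of 0.05 (SE 0.0429) in 11H1 (edgeR adjusted p = 0.321) and of 0.27 (SE 0.0449) in 14B5 (adjusted p = 5.71e-04). *TYMS* shares 967 exon bases with *ENOSF1* on the opposite strand, and the sources do not say whether counting used strand. *ENOSF1* moved the other way, with a log2FC of −1.18 in 14B5 (adjusted p = 1.39e-07), and had at most 2021 counts in a library where *TYMS* had at least 12851. A further antisense gene at the start of *TYMS*, *TYMSOS* (183 shared exon bases), had at most 52 counts.

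*DUT* encodes dUTPase, which supplies deoxyuridylate to TYMS and keeps uracil out of DNA (ENSG00000128951.14, chr15:48331011-48343373, plus). Levels were 139, 152 and 137 CPM in WT, 118, 135 and 125 in 11H1, and 183, 168 and 170 in 14B5. Every 11H1 library was below every WT library, the nearest pair being 135 and 137 CPM, and every 14B5 library was above. *DUT* fell in 11H1 (log2FC −0.18, SE 0.0576, edgeR adjusted p = 0.0171) and rose in 14B5 (0.26, SE 0.0566, adjusted p = 0.00296). The fall in 11H1 lost its call without WT replicate 2 (adjusted p = 0.0817), 11H1 replicate 1 (0.0903) or 11H1 replicate 3 (0.0594). An antisense gene over its first exons, AC023355.1, shares 533 exon bases with it and had 34 to 131 counts in a library.

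*DTYMK* encodes thymidylate kinase, which takes the product of TYMS and TK1 on towards dTTP (ENSG00000168393.13, chr2:241675742-241686991, minus). Its libraries held 43.9, 44.6 and 37.2 CPM in WT, 38.7, 40.0 and 36.6 in 11H1, and 57.4, 55.1 and 61.3 in 14B5. The 11H1 and WT libraries overlapped because WT replicate 3 was low, and 14B5 lay above both. The log2FC was −0.12 (SE 0.0707) in 11H1 (edgeR adjusted p = 0.159), which passed without WT replicate 3 (−0.20, adjusted p = 0.00340), and 0.45 (SE 0.0742) in 14B5 (adjusted p = 5.90e-04).

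Of the salvage kinases, *TK1* encodes the cytosolic thymidine kinase, a classic marker of proliferating cells (ENSG00000167900.12, chr17:78174075-78187233, minus). Its libraries held 231, 236 and 207 CPM in WT, 269, 279 and 258 in 11H1, and 359, 365 and 372 in 14B5. The groups formed 3 separate steps, with means of 225 ± 15.6, 268 ± 10.3 and 365 ± 6.59 CPM. *TK1* had the largest rise of the members in 14B5, a log2FC of 0.68 (SE 0.0576, 1.61-fold, edgeR adjusted p = 5.40e-06), and rose by 0.26 (SE 0.0576, 1.20-fold, adjusted p = 0.00164) in 11H1.

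*DCK* encodes deoxycytidine kinase, which phosphorylates deoxycytidine and purine deoxynucleosides and activates cytarabine, gemcitabine and cladribine (ENSG00000156136.10, chr4:70992538-71030914, plus). WT libraries stood at 132, 149 and 164 CPM, 11H1 libraries at 116, 116 and 115, and 14B5 libraries at 219, 218 and 189. The 11H1 values lay below every WT value, and the 14B5 values lay above, with means of 149 ± 15.7, 116 ± 0.763 and 209 ± 17.2 CPM. *DCK* fell in 11H1 (log2FC −0.35, SE 0.0657, edgeR adjusted p = 5.28e-04) and rose in 14B5 (0.47, SE 0.0822, adjusted p = 7.99e-04). The clones differed most in this member, which was 0.558 times as high in 11H1 as in 14B5, a log2FC of −0.84 (SE 0.0572, adjusted p = 2.03e-07). *MOB1B*, which lies on the same strand and shares 199 exon bases with *DCK*, was not called in either clone, at 0.04 in 11H1 (adjusted p = 0.625) and −0.08 in 14B5 (0.480).

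**Figure D2:**
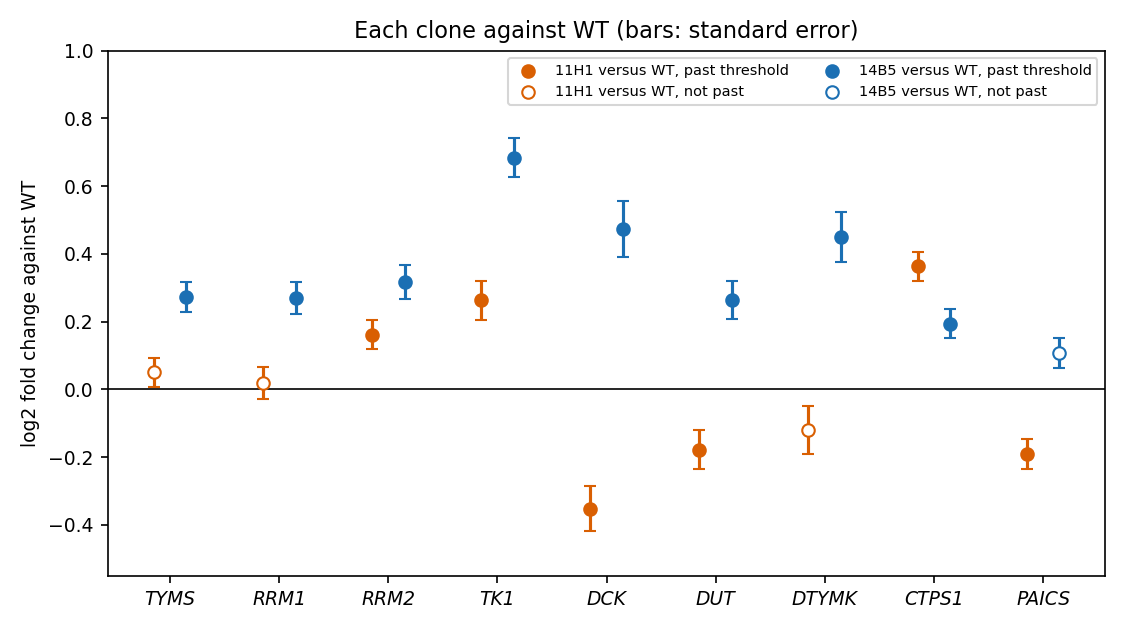
log2 fold change of each gene (vertical axis) in 11H1 (orange) and 14B5 (blue) against WT, with standard errors; filled points passed the threshold of 0.05 on edgeR's adjusted p and open points did not. All 14B5 points lie above 0, from 0.11 for *PAICS* to 0.68 for *TK1*, whereas the 11H1 points run from −0.35 for *DCK* to 0.36 for *CTPS1*.

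*CTPS1* encodes CTP synthase, which makes CTP from UTP and glutamine and on which proliferating lymphocytes depend (ENSG00000171793.16, chr1:40979335-41012565, plus). Its levels were 87.7, 86.4 and 87.5 CPM in WT, 111, 114 and 110 in 11H1, and 103, 97.9 and 102 in 14B5. It was the only member with its highest level in 11H1, at 112 ± 2.23 CPM beside 101 ± 2.71 in 14B5 and 87.2 ± 0.711 in WT, and no groups overlapped. The log2FC was 0.36 (SE 0.0425) in 11H1 (edgeR adjusted p = 1.33e-05) and 0.19 (SE 0.0435) in 14B5 (adjusted p = 0.00380), and *CTPS1* was higher in 11H1 than in 14B5 by 0.15 (SE 0.0423, adjusted p = 0.00759). Its paralog *CTPS2* has its own row in the table.

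*PAICS* encodes a bifunctional enzyme of de novo purine synthesis (ENSG00000128050.8, chr4:56435741-56464579, plus). Its levels were 604, 586 and 604 CPM in WT, 512, 523 and 529 in 11H1, and 668, 648 and 639 in 14B5. The groups did not overlap, with 11H1 lowest (522 ± 8.96 CPM), WT between (598 ± 10.5) and 14B5 highest (652 ± 15.2). *PAICS* fell in 11H1 (log2FC −0.19, SE 0.0431, edgeR adjusted p = 0.00198) and was the single member not called in 14B5 (0.11, SE 0.0451, adjusted p = 0.0689), a value that passed in 6 of the 14 other settings tried, among them the DESeq2 Wald test (adjusted p = 0.0116) and edgeR without WT replicate 3 (0.0494). The pseudogene *PAICSP4*, the closest to it in counts, reached at most 0.781% of the *PAICS* count. *PPAT*, the first committed enzyme of the same pathway, is transcribed from the opposite strand next to *PAICS* and rose in both clones, by 0.13 in 11H1 (adjusted p = 0.0359) and 0.30 in 14B5 (0.00154). The call of *PPAT* in 11H1 was lost in 4 of the 6 fits without a single library (edgeR adjusted p = 0.142 without WT replicate 1, 0.174 without WT replicate 2, 0.106 without 11H1 replicate 1 and 0.105 without 11H1 replicate 3). It was also lost by the DESeq2 Wald test (adjusted p = 0.0658) and by edgeR without the filter on low counts (0.103). The *PPAT* libraries of 11H1 and WT overlapped.

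The direct comparison of the clones, 11H1 against 14B5, tested whether they differ. *DCK* was followed by *DTYMK* (log2FC −0.58, SE 0.0542, edgeR adjusted p = 2.36e-06), *DUT* (−0.46, SE 0.0545, 1.75e-05) and *TK1* (−0.44, SE 0.0433, 4.02e-06). *PAICS* (−0.31, 2.38e-05), *RRM1* (−0.27, 1.45e-04), *TYMS* (−0.24, 2.80e-04) and *RRM2* (−0.17, 0.00766) differed less. The median over the 9 genes was −0.31. The libraries of the clones did not overlap for any member, as was so for 68.7% of the genes tested. These calls stayed past the threshold in all 126 combinations of gene and alternative setting. Neighbouring genes within 5 Mb had medians of −0.18 around *PAICS* (16 of 27 lower and 3 higher), −0.16 around *DUT* (30 of 70 lower and 20 higher) and −0.10 around *DTYMK* (15 of 39 lower and 11 higher). They had medians of 0.10 around *DCK* (5 of 25 lower and 9 higher) and *TYMS* (3 of 29 lower and 10 higher). The part of the neighbourhood in the differences was not tested.

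Together the 9 genes took 0.194% to 0.199% of the reads in the WT libraries, 0.196% to 0.201% in 11H1 and 0.241% to 0.249% in 14B5. The summed share of 11H1 overlapped that of WT, although 6 of the members had passed the test there, 3 in each direction. The median log2FC of the members was 0.02 in 11H1 and 0.27 in 14B5, beside −0.01 over all genes tested in each comparison.

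The study's pool of KO libraries was smaller than the 6 used here, and the library it left out is not named. Pooling both clones as KO (n = 6) against WT (n = 3) called 3 of the 9 genes, all higher, beside 32.0% of 17080 genes tested (14.3% higher). They were *TK1* (log2FC 0.50, SE 0.138, edgeR adjusted p = 0.0204), *CTPS1* (0.29, SE 0.0611, 0.00563) and *RRM2* (0.25, SE 0.0717, 0.0242). All 6 KO libraries stood above all WT libraries for these 3 and for *TYMS* (0.17, adjusted p = 0.146), which applied to 16.3% of the genes tested. *DCK* (0.13, adjusted p = 0.725), *DUT* (0.07, 0.748) and *PAICS* (−0.03, 0.857) had clones on either side of WT, so their pooled values describe neither clone. Without any single WT library only *CTPS1* stayed called, and with all 9 libraries in a fit of 3 groups the count was 6.

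Compared per length, as CPM per kilobase of merged exons, the order in WT was *TYMS* (155 ± 2.34), *TK1* (121 ± 8.40), *PAICS* (79.6 ± 1.40), *RRM1* (49.7 ± 2.05), *DCK* (46.0 ± 4.87), *DUT* (38.9 ± 2.16), *RRM2* (28.3 ± 0.516), *DTYMK* (17.1 ± 1.66) and *CTPS1* (7.57 ± 0.0617). *RRM1* and *DCK* overlapped, as did *DCK* and *DUT*, and the other neighbours in this order did not. In 14B5, *TK1* (193 to 200) overlapped *TYMS* (186 to 196) on this scale, and *DCK* (58.5 to 67.9) overlapped *RRM1* (59.6 to 62.0). In 11H1, *RRM1* (48.9 to 51.4) was clear of *DCK* (35.6 to 36.1), which overlapped *DUT* (32.2 to 36.7). The large reductase subunit was thus above the small one in every group, by 49.7 to 28.3 in WT and 60.6 to 35.7 in 14B5 on this scale. With the longest annotated transcript as the length, *DUT* (66.5 in WT) moved up to *RRM1* (65.6), and *TK1* did not reach *TYMS* in 14B5 (means of 217 and 282).

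**Figure D3:**
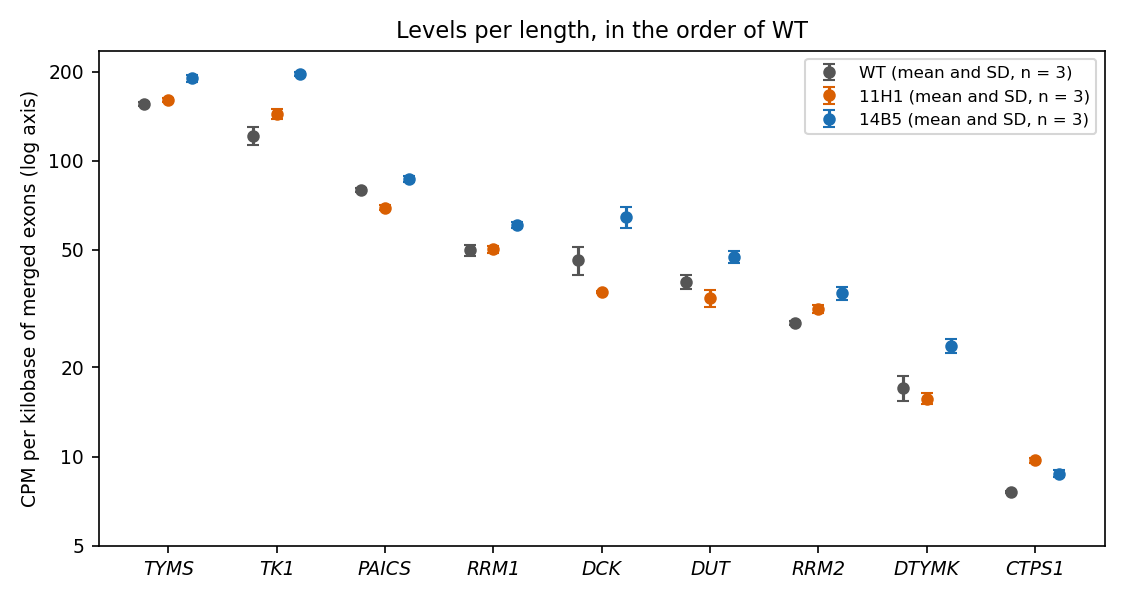
Level of each gene as CPM per kilobase of merged exons (vertical axis, logarithmic) in WT, 11H1 and 14B5, as mean and SD of 3 libraries, in the order of WT. The genes span from *TYMS* (155 in WT) to *CTPS1* (7.57), and *TK1* overlaps *TYMS* in 14B5, which did not hold with the longest transcript as the length (217 against 282).

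Members were also compared by profile, the log2 CPM of each library minus the WT mean, over all 9 libraries. The closest pair was *TYMS* and *RRM1*, with a root mean square difference of 0.0506, and the farthest was *DCK* and *CTPS1* (0.452). *TK1* deviated most from WT (root mean square 0.531 over the 6 KO libraries). Among 9371 other protein-coding genes with at least 10 CPM, the profiles nearest to *TK1* were those of *RHEBL1* (0.0383), *MAP2K3* (0.0518), *GINS2* (0.0648), *SYNGR1* (0.0674) and *PRXL2B* (0.0679). The libraries share their depth and composition, so these distances are descriptions.

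The other 49 genes of the nucleotide pathways were described by the same fits. In 11H1, 10 rose and 23 fell of 48 tested (median log2FC −0.16), and in 14B5, 19 rose and 7 fell of 49 (median 0.08). Against 14B5, 11H1 was lower in 32 and higher in 2 of 48 (median −0.25). The list was written from general knowledge and is read here by its counts and medians beside the shares of all genes given above.

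**Figure D4:**
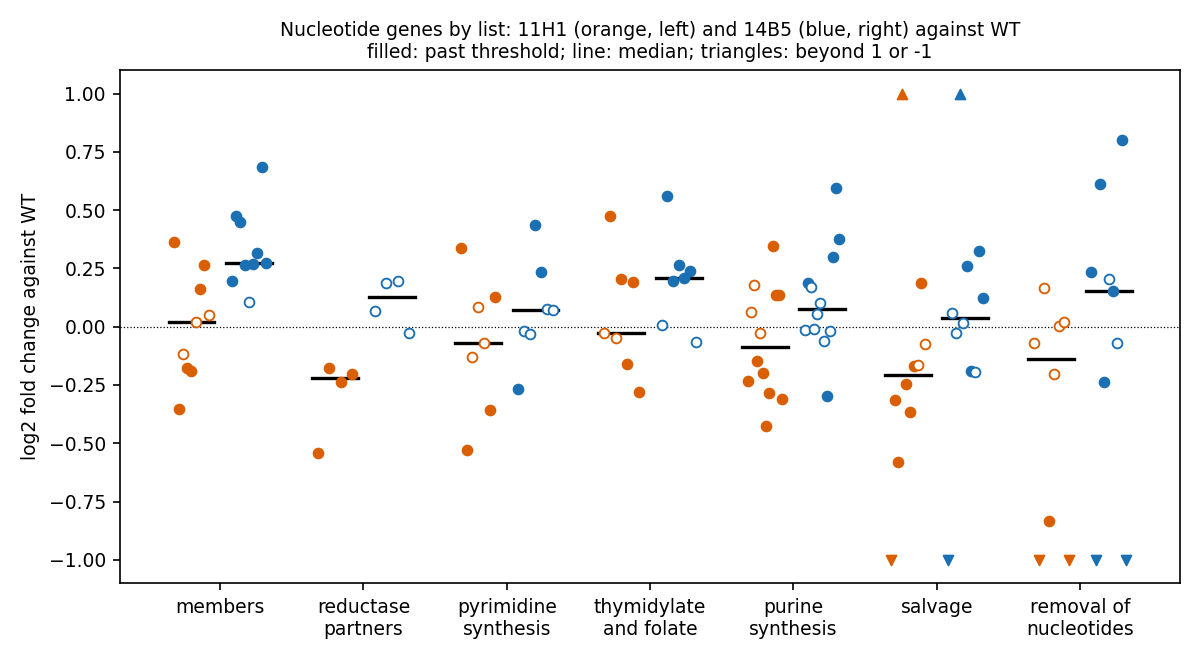
log2 fold change (vertical axis, values beyond 1 or −1 drawn as triangles at the edge) of the members and of 6 lists of other nucleotide genes in 11H1 (orange, left) and 14B5 (blue, right) against WT; filled points passed the threshold on edgeR's adjusted p and lines mark medians. The blue medians lie above the orange ones in every list, at 0.27 and 0.02 for the members.

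Among the 7 thymidylate and folate genes, 3 rose and 2 fell in 11H1 and 5 rose in 14B5. *MTHFD1* (log2FC 0.20 in 11H1 and 0.26 in 14B5) and cytosolic *SHMT1* (0.19 and 0.24), which charge folate with carbon units, rose in both, the call of *SHMT1* in 14B5 being lost without WT replicate 2 (edgeR adjusted p = 0.0506), while mitochondrial *SHMT2* fell in 11H1 (−0.28, adjusted p = 3.71e-04) and was at −0.06 in 14B5 (0.391).

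Of the 7 pyrimidine genes, 2 rose and 2 fell in 11H1, and 2 rose and 1 fell in 14B5. *CAD*, the enzyme that opens pyrimidine synthesis, was called in opposite directions, at 0.34 in 11H1 (edgeR adjusted p = 4.71e-05) and −0.27 in 14B5 (9.90e-04). Its levels were 240, 239 and 239 CPM in WT, 312, 290 and 301 in 11H1, and 190, 204 and 209 in 14B5. *DHODH*, the mitochondrial step, rose in 14B5 (0.43) and was at 0.09 in 11H1 (adjusted p = 0.252). The kinases *CMPK1* and *NME2*, which carry nucleotides on towards the triphosphates, fell in 11H1 (−0.53 and −0.36) and were at −0.02 and 0.08 in 14B5, neither called.

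Of the 12 purine genes, 3 rose and 6 fell in 11H1, and 4 rose and 1 fell in 14B5. *PRPS1* and *PRPS2*, which make the phosphoribosyl pyrophosphate that both branches consume, rose in 14B5 by 0.59 and 0.38. In 11H1, *PRPS1* rose by 0.14 (edgeR adjusted p = 0.0370) and *PRPS2* fell (−0.31, adjusted p = 1.02e-04). That rise of *PRPS1* was lost without WT replicate 2 (edgeR adjusted p = 0.212) or without 11H1 replicate 1, 2 or 3 (0.0546, 0.0604 and 0.147). It was also lost without the filter on low counts (edgeR adjusted p = 0.0813). *PFAS*, the glutamine-using enzyme upstream of PAICS, rose in 11H1 (0.35) and was at −0.02 in 14B5, and *IMPDH1*, on the way to guanine nucleotides, fell in 11H1 (−0.43) and was at −0.06 in 14B5.

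Of the 10 salvage genes, 2 rose and 6 fell in 11H1, and 4 rose and 2 fell in 14B5. *ADA*, adenosine deaminase, whose loss lets deoxyadenosine build up, fell most, with 27.0, 27.7 and 22.8 CPM in WT, 8.10, 8.22 and 7.42 in 11H1, and 12.1, 10.8 and 12.2 in 14B5. Its log2FC was −1.70 in 11H1 (edgeR adjusted p = 1.60e-08) and −1.16 in 14B5 (2.42e-06). *HPRT1*, which salvages hypoxanthine and guanine, was, like *DCK*, lower in 11H1 (−0.37) and higher in 14B5 (0.26), and *APRT* fell in 11H1 (−0.58) and was at −0.03 in 14B5. The uridine-cytidine kinase *UCK1* rose in both, by 0.19 and 0.32, and its call in 11H1 was lost without 11H1 replicate 1 (edgeR adjusted p = 0.0663) or 11H1 replicate 2 (0.0660).

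Among 9 genes that remove nucleotides, 3 of 8 tested fell in 11H1, and 4 rose and 3 fell of 9 in 14B5. *DPYD*, which degrades pyrimidines, had 160 to 186 counts in WT and 7 to 27 in the clones (log2FC −3.38 in 11H1 and −3.75 in 14B5, edgeR adjusted p = 1.56e-07 and 4.22e-07). *SAMHD1*, the dNTP hydrolase that also limits cytarabine, was not called, at 0.02 in 11H1 (adjusted p = 0.763) and −0.07 in 14B5 (0.299). The mitochondrial nucleotidase *NT5M* fell in both (−0.83 and −0.24), and the cytosolic *NT5C* and the dCTP hydrolase *DCTPP1* rose in 14B5 (0.61 and 0.23) and had 0.17 and −0.07 in 11H1, neither called. Single libraries changed some of these calls: in 14B5 *NT5M* was lost without 14B5 replicate 2 (edgeR adjusted p = 0.0923) and *DCTPP1* without 14B5 replicate 3 (0.0980), and in 11H1 *NT5C* passed without WT replicate 2 (0.0345) or 11H1 replicate 3 (0.0431) and *DCTPP1* without WT replicate 3 (0.0196). With the replicate number as a block, *DCTPP1* was not called in 14B5 (edgeR adjusted p = 0.0729) and *NT5C* was called in 11H1 (0.0159).

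The wider S phase program was set beside the members. Of 40 S phase genes other than *TYMS*, *RRM1* and *RRM2*, 29 rose and 3 fell in 11H1 (median log2FC 0.23) and 37 rose and 1 fell in 14B5 (median 0.36). For the G2/M genes the medians over 52 tested were 0.21 and 0.31. In 11H1 the median of the 9 members, 0.02, was thus lower than those of both cell cycle lists, and in 14B5 it was 0.27 beside 0.36 and 0.31. These medians were not tested against each other.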

How the data were processed

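Total RNA of 9 SET2 libraries was sequenced as paired ends. The methods name a stranded mRNA kit and the labels another kit, and the strand setting of the counting is not given in the sources used here. The deposited values are RSEM expected counts, which the authors gave without normalization for depth or length. The submitters' processing notes name STAR 2.7.9a, Picard, RSEM and GRCh38. The annotation release and the RSEM version are not given in the sources used here. The 92 spike-in rows were at 0 and were left out, and library totals were 32347779 to 60272245.

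Expected counts were rounded and fitted across all genes by edgeR 4.0.16 (R 4.3.3), using TMM factors, filterByExpr for the groups compared and the quasi-likelihood F test, with a threshold of 0.05 on p-values adjusted by Benjamini-Hochberg. Comparisons were each clone with WT, 11H1 with 14B5, and both clones with WT. CPM use TMM-scaled totals, and profiles use log2 CPM with a prior count of 2. Coordinates and exon lengths come from GENCODE release 29 on GRCh38, which held 58587 of the 60662 genes by identifier. Promoter sequences are those of RefSeq, which held all 9 members.

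Beside the 9 members, the named genes were, in each of the lists of nucleotide genes, up to 4 with the largest called change in a single clone and a mean of at least 1 CPM, then *RRM2B*, *SAMHD1* and *PPAT*, the 5 genes with profiles nearest to the member that deviated most from WT, and genes that overlap members in the annotation. The rule also named 1 gene that is left out here. Members and lists were chosen with earlier results of these data known. The alternatives tried were the size factors and the Wald test of DESeq2 1.42.0, limma-voom (limma 3.58.1) without rounding, the filter on low counts dropped or set to 10 counts in each library, mitochondrial genes left out, a block for the replicate number, all 9 libraries fitted as 3 groups, the longest transcript as length, and each library left out in turn. The fits were tested on simulated data. Pairs of libraries of a group differed by 4.04 to 35.8 times the sampling noise, so none was counted as a copy of another.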

Additional observations from a re-analysis of the deposited data

Results flagged for a closer look

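The results below were singled out because the effect in 11H1 differed from that in 14B5 by a direct test of the clones (edgeR quasi-likelihood test, adjusted p below 0.05, 3 libraries against 3), as was so for 63.7% of all genes tested. Values are the log2 fold change of 11H1 against 14B5.

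Among the deoxynucleotide genes, *DCK* (−0.84), *DTYMK* (−0.58), *DUT* (−0.46), *TK1* (−0.44), *PAICS* (−0.31), *RRM1* (−0.27), *TYMS* (−0.24) and *RRM2* (−0.17) were lower in 11H1, and *CTPS1* (0.15) was higher. Those that lie on opposite sides of WT in the clones, with a call in each clone, were *DCK* and *DUT*.

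The reductase partners *GLRX* (−0.62), *TXN* (−0.45), *RRM2B* (−0.38) and *TXNRD1* (−0.19) were all lower in 11H1. So were the pyrimidine genes *CMPK1* (−0.52), *NME2* (−0.45) and *DHODH* (−0.36), whereas *CAD* was higher (0.59). Of the folate genes, *SHMT2* was lower (−0.23), as were *MTHFD2* (−0.39) and *FPGS* (−0.26), which the naming rule did not cover.

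In purine synthesis, *PRPS2* (−0.70), *PRPS1* (−0.47), *IMPDH1* (−0.38) and *PPAT* (−0.18) were lower and *PFAS* was higher (0.35). In salvage, *HPRT1* (−0.64), *APRT* (−0.57), *ADA* (−0.55) and *UCK1* (−0.15) were lower, the last of these losing its call without 11H1 replicate 1 or 3 or without 14B5 replicate 2 or 3 (edgeR adjusted p = 0.0546, 0.0936, 0.0634 and 0.0638). The call of *UCK1* was also lost with the filter set to 10 counts in each library (edgeR adjusted p = 0.0515). Of the genes that remove nucleotides, *NT5M* (−0.61), *NT5C* (−0.46) and *DCTPP1* (−0.32) were lower. Outside the members, *PRPS2*, *HPRT1*, *CAD* and *MTHFD2* were called on opposite sides of WT in the clones.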

How the results depend on the processing

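The pooled comparison depended most on the processing. KO versus WT called 3 deoxynucleotide genes, 6 in a fit of 3 groups, 1 with the replicate number as a block, and 1 to 3 with a library left out, the count being 1 without each WT library. For the other nucleotide genes it called 11, against 7 without the filter, 25 in the fit of 3 groups, 7 with the block and 7 to 13 with a library left out. The replicate numbers do not pair the libraries (correlations of deviations −0.145 to 0.0581), and with the block 6, 8 and 9 members were called in 11H1, 14B5 and 11H1 versus 14B5, as without it. Directions turned for values near 0 that were not called: without the filter, *RRM1* (−0.0042) and *SAMHD1* (−0.00085) in 11H1 and *CMPK1* (0.02), *PFAS* (0.02), *TXNRD1* (0.01) and *APRT* (0.01) in 14B5; by the DESeq2 Wald test, *CMPK1* (0.01) and *PFAS* (0.0049) in 14B5; and with a library left out, *RRM1* (−0.02 to 0.04) and *SAMHD1* (−0.01 to 0.05) in 11H1, *APRT* (−0.08 to 0.04), *TXNRD1* (−0.05 to 0.01), *CMPK1* (−0.05 to 0.02), *PFAS* (−0.03 to 0.01) and *SHMT2* (−0.10 to 0.0035) in 14B5, *DPYD* (−0.12 to 0.69) between the clones and *PAICS* (−0.07 to 0.01) in KO versus WT. The cause was not tested. For single members, 120 of 126 values in 11H1, 120 of 126 in 14B5, 126 of 126 between the clones and 139 of 153 in KO versus WT kept their direction and their side of the threshold. With 2 clones, a difference between clones and an effect of the knockout cannot be told apart. The CPM scale gives shares of the RNA, so an equal change of all genes cannot be seen.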

Other observations

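Some nucleotide genes outside the naming rule, chosen after their values were seen, changed by more than any member but at low levels. *CDA*, cytidine deaminase, which inactivates cytarabine, had 8, 3 and 5 counts in WT, 19, 20 and 15 in 11H1, and 71, 52 and 76 in 14B5 (log2FC 1.96 and 3.39 against WT, edgeR adjusted p = 0.00116 and 3.50e-05). *UPP1*, uridine phosphorylase, had 19, 16 and 18 counts in WT, 5, 3 and 3 in 11H1, and 0, 4 and 1 in 14B5. *TYMP*, thymidine phosphorylase, had 8, 11 and 8 counts in WT, 6, 2 and 3 in 11H1, and 16, 20 and 20 in 14B5. At these counts the sizes of the folds are uncertain, although in CPM the libraries of the groups did not overlap for *CDA*, *UPP1* or *TYMP*. For *UPP1* the counts of the 2 clones did overlap. Its lowest 11H1 library was at 0.0912 CPM and its highest 14B5 library at 0.0669. The clones were not tested against each other for *UPP1*.

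Enzymes that take the amide nitrogen of glutamine, a grouping also made after the values were seen, did not share a direction between the clones: *CTPS1*, *CAD* and *PFAS* were higher in 11H1 than in 14B5 (log2FC 0.15, 0.59 and 0.35), and *PPAT* and *GMPS* were lower (−0.18 and −0.31). *CTPS2*, of the same kind, was at −0.12 and was not called (edgeR adjusted p = 0.0727). *IMPDH2* and *PNP* fell in both clones by similar amounts, with log2FC of −0.28 and −0.17 in 11H1 and −0.30 and −0.19 in 14B5 (edgeR adjusted p = 1.61e-04, 0.00388, 3.73e-04 and 0.00606).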
